A study of Mus musculus with 4 samples.

Results

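The genes described here belong to the amino acid response, also called the integrated stress response: the transcription factor gene Atf4 with its stress targets, the enzymes of amino acid and one-carbon synthesis that ATF4 drives, and the cytoplasmic aminoacyl-tRNA synthetases. A list of 36 such genes was looked up by symbol, including older and newer forms of the synthetase names. Among the 12393 genes with a probe set assigned to 1 gene symbol only, 33 of them were found, namely 10 of 10 stress regulators, 9 of 10 synthesis enzymes and 14 of 16 synthetases. Pycr1, Mars and Dars were not analysed here. All 33 passed the filter on dim signals and were tested among 9295 genes. The study used C2C12, an established mouse myoblast line, held out of the cell cycle in G0 for 48 hours by suspension in methyl cellulose after growth in medium with fetal calf serum. One group received purified Wnt3A, a ligand of the β-catenin pathway, at 50 ng/ml (2 arrays, called Wnt3A replicates 1 and 2), and the other is labelled control (2 arrays, called control replicates 1 and 2). Both groups share the line, the serum-containing medium and the suspension, so no adherent or dividing cells stand beside them.

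In this pathway, kinases that sense amino acid shortage, misfolded protein in the endoplasmic reticulum, or other stress phosphorylate the translation factor eIF2. General translation then slows, while the Atf4 messenger RNA is translated more, so the activity of ATF4 need not follow its mRNA. ATF4 pairs with C/EBP-family or other partners and binds a composite sequence known as the C/EBP-ATF response element, found near genes that supply amino acids, serine-derived one-carbon units and charged tRNAs. In muscle the pathway is known for its response to starvation and to mitochondrial and endoplasmic reticulum stress.

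The promoters are shown because this element is the sequence through which ATF4 is known to act. The RefSeq promoter table of GRCm38.p6, which spans 250 bases before to 50 bases after each start site, held 27 of the 36 genes by symbol, 24 of them among the 33 measured. The element was searched as TGATGNAA on both strands, in which TGATGCAA is a subset and not a separate match. It lay in the window of 9 of those 24 measured genes, and 3.97% of all 32851 promoter entries held it. The subset TGATGCAA was found in 6 of the 24, against 0.895% of all entries, and the endoplasmic reticulum stress element (CCAAT and CCACG with 9 free bases between them, both strands) in 0 of the 24, against 0.119%. A match describes letters in the window and not a site in use. The 250 bases before the start site of 3 widely known targets are given 5′ to 3′ on the strand of the gene, with the element in capitals. Counting the base before the start site as -1, the first capital stands at -23 in Asns, at -193 in Chac1 and at -110 in Atf3, and the element is read on the opposite strand in Chac1 and Atf3.
Asns, chr6:7693210-7693459, minus strand: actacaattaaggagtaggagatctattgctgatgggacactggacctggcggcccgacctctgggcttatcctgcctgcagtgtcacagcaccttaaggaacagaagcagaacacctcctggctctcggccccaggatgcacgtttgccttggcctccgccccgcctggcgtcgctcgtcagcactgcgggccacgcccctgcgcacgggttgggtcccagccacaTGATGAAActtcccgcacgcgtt
Chac1, chr2:119350992-119351241, plus strand: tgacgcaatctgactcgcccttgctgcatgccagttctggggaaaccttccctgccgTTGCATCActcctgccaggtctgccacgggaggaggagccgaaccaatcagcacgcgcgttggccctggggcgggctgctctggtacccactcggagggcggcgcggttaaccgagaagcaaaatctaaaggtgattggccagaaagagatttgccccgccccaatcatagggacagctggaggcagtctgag
Atf3, chr1:191183334-191183583, minus strand: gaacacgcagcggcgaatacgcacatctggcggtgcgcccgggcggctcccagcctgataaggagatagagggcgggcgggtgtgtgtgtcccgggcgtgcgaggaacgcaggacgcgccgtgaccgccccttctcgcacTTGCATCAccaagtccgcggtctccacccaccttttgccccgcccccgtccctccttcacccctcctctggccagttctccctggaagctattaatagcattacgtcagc
For further genes with a match, windows of 28 bases show how alike the elements are. The form TTGCATCA, the opposite-strand reading of TGATGCAA, recurs in Iars and Tars, and Yars holds TGATGCAA itself. Trib3 and Gars have another letter at the free position.
Trib3, chr2:152344029-152344056, minus strand: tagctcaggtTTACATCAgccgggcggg
Gars, chr6:55037961-55037988, plus strand: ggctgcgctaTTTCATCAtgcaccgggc
Iars, chr13:49682127-49682154, plus strand: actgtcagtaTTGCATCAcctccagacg
Tars, chr15:11399656-11399683, minus strand: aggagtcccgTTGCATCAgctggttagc
Yars, chr4:129189896-129189923, plus strand: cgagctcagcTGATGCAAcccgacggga

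Signals are log2 values of 1 probe set per gene, each group has 2 arrays, and differences are the Wnt3A mean minus the control mean on the log2 scale. A gene's level cannot be set against another gene's, so only differences are compared between genes. In bulk RNA, fewer cells of a type and less RNA per cell cannot be told apart. The 4 arrays had medians between 4.15 and 4.22 and correlated pairwise at r = 0.936 to 0.978 across the tested genes. Of 8 myoblast markers 7 were above the limit for dim genes, a mean of 2.18, and Pax7 was under it. Of the 7, 3 were higher and 4 lower with Wnt3A. Myf5 read 7.77 and 7.65 in Wnt3A cells and 6.57 and 5.98 in control cells. Myod1 read 6.32 and 3.62 in Wnt3A cells and 6.84 and 7.11 in control cells. Of 7 fibroblast markers Thy1 and Lum were under the limit and 5 were above, of which 4 were lower and 1 higher with Wnt3A. Col3a1, among the lower, read 12.11 and 11.73 in Wnt3A cells and 12.37 and 12.36 in control cells. Col1a1, the higher, read 5.64 and 6.41 in Wnt3A cells and 4.59 and 6.39 in control cells. Of 7 macrophage markers Ptprc, Adgre1 and Itgam were under the limit and 4 were above. Of these 4, Cd14 and Fcgr3 were lower with Wnt3A and Csf1r and Cd68 were higher. Cd14 read 6.16 and 6.46 in Wnt3A cells and 7.54 and 7.40 in control cells. Csf1r read 3.53 and 5.19 in Wnt3A cells and 3.26 and 3.39 in control cells.

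No gene of the programme passed the test between Wnt3A and control cells. In limma, with Benjamini-Hochberg adjustment over all tested genes, 0 of the 33 genes passed an adjusted p of 0.05, and 0% of all genes did. The lowest adjusted p among the 33 was 0.917, unmoderated statistics also called 0 of them, and 0 of the 33 had an unadjusted p under 0.05, against 5.68% of all genes. An exact permutation test of 2 arrays against 2 cannot go below a two-sided p of 0.333. The mean was higher with Wnt3A in 29 of the 33 genes, against 47% of all genes, and scaling to hybridization controls put the other 4 (Ddit4, Shmt2, Eprs and Vars) above 0 too while it moved the median of all genes to 0.31. As deposited, the median difference was 0.23, against -0.02 for all tested genes. At least 1.5-fold higher means were seen for 6 genes (5.94% of all genes) and at least 1.5-fold lower ones for 0 (6.44% of all genes). With the replicate number as a block limma called 0 of the 33 at an adjusted p of 0.05 (0.893% of all genes), and 6 had an unadjusted p under 0.05 (11.7% of all genes). The direction of the median rested on single arrays. Without Wnt3A replicate 2 the median over the 33 genes was -0.46, without control replicate 1 it was -0.15, and without Wnt3A replicate 1 it was 0.95. Wnt3A lay above both controls on both of its arrays for 2 genes, Atf3 and Cbs (14.7% of all genes), and below both controls for 0 (19.8% of all genes).

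What the genes shared was a gap between the arrays numbered 1 and those numbered 2, present in both groups. The counts by replicate number given here were chosen after the data were seen, so they are a description and not a test. Replicate 2 lay above replicate 1 in both Wnt3A and control cells for 33 of the 33 genes, where 36.4% of all tested genes did so. By at least 1.5-fold in both groups the count was 19 of 33, against 4.36% of all genes. Wnt3A replicate 2 was the highest of the 4 arrays for 31 genes (32.5% of all genes). The exceptions were Eprs and Vars, in which control replicate 2 was highest. The median gap was 1.45 between the Wnt3A arrays and 0.78 between the control arrays, and it was 0.03 and 0.07 over all tested genes. Of 30 other probe sets of these genes above the limit for dim genes, 24 had replicate 2 above replicate 1 in both groups. Those without that order were probe sets of Atf4, Sesn2, Cars, Shmt2 and Eprs. For Sesn2, Phgdh, Shmt2, Eprs and Wars at least 1 other probe set gave a group difference of the opposite sign. With quantile normalization Hars was an exception, with scaling to hybridization controls Eif4ebp1 and Hars were, and after averaging over probe sets Sesn2 was.

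**Figure D1:**
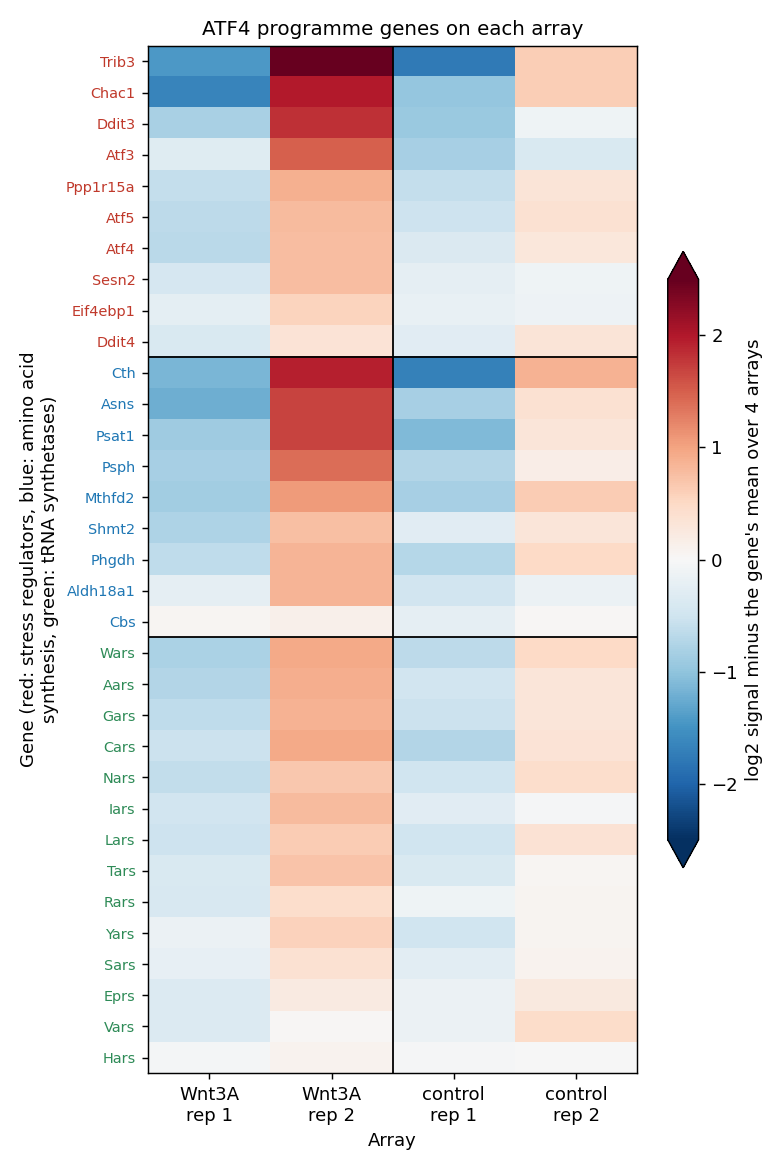
Log2 signal of 33 genes on each array (columns, Wnt3A arrays left) after subtraction of the gene's mean over the 4 arrays, with genes in rows by role. The column of Wnt3A replicate 2 is above the mean in all 33 rows, control replicate 2 is above it in most rows but below it in others such as Atf3 and Ddit3, and both replicate 1 columns are mostly below it.

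Among the stress regulators, Atf4 itself had signals of 8.98 and 10.42 in Wnt3A cells, against 9.29 and 9.93 in control cells. The control arrays lay between the Wnt3A arrays, and the difference was 0.09 (SE 0.54, 95% confidence interval -1.32 to 1.51). Another Atf4 probe set read 8.09 and 9.16 in Wnt3A cells and 8.42 and 8.40 in control cells, so its control arrays hardly differed. Atf5, a related factor that is translated under the same conditions, read 7.16 and 8.61 in Wnt3A cells and 7.31 and 8.20 in control cells. It repeated the array order of the Atf4 probe set with the highest mean. Ddit3 encodes CHOP, a factor induced downstream of ATF4 in prolonged stress, and had 7.34 and 9.98 in Wnt3A cells, against 7.22 and 8.04 in control cells. The 3 lower arrays stood within 0.82 of each other and Wnt3A replicate 2 stood apart, so the difference of 1.03 (SE 0.92, adjusted p = 0.934 in limma) came with an interval of -1.38 to 3.44. Atf3, a stress-induced repressor and activator, read 5.37 and 7.16 in Wnt3A cells and 4.84 and 5.29 in control cells. Its groups did not overlap, by a margin that was small beside the gap between the Wnt3A arrays, and the difference was 1.20 (SE 0.64, adjusted p = 0.917 in limma).

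Trib3 and Chac1 had the widest gaps between the Wnt3A arrays. Trib3, a pseudokinase that binds ATF4 and AKT, had 4.80 and 8.82 in Wnt3A cells, against 4.46 and 6.85 in control cells. Replicate 2 was thus 16.2-fold above replicate 1 with Wnt3A and 5.23-fold above it in control, and the difference between the groups was 1.15 (SE 1.54). Chac1 degrades glutathione and was described next because of its spread, chosen after its values were seen. Its signals were 3.75 and 7.37 in Wnt3A cells and 4.43 and 6.01 in control cells, a difference of 0.34 (SE 1.31). Within replicate 1 Chac1 was lower with Wnt3A by a log2 difference of -0.69 and within replicate 2 it was higher by 1.36. The remaining regulators had narrower gaps. Ppp1r15a, the phosphatase subunit that restores eIF2, had a gap of 1.47 between the Wnt3A arrays and 0.92 between the controls, and Ddit4, an inhibitor of mTORC1, had 0.71 and 0.60. For Sesn2, a leucine sensor, and Eif4ebp1, an inhibitor of cap-dependent translation, the gap was 1.18 and 0.80 between the Wnt3A arrays but 0.12 and 0.05 between the controls.

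**Figure D2:**
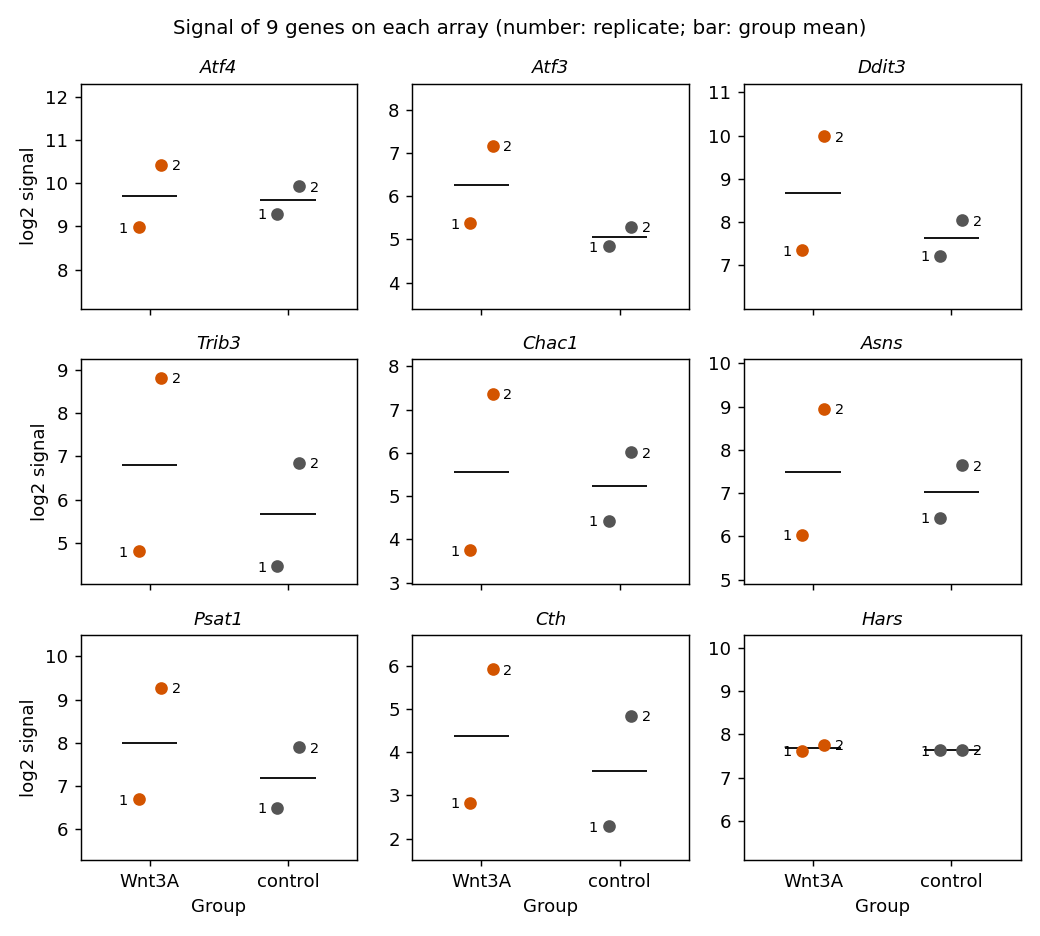
Log2 signal of 9 genes on each array, Wnt3A left of control, with the replicate number beside each point and a bar at the group mean; each panel spans the same number of log2 units. Both points numbered 2 lie above both points numbered 1 except in the Atf3 panel, and the Hars points lie close together.

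The serine and asparagine enzymes showed the same order. Asns, asparagine synthetase, read 6.04 and 8.94 in Wnt3A cells and 6.43 and 7.64 in control cells, and its second probe set gave nearly the same difference, 0.42 beside 0.45 (SE 1.05). In Asns both arrays numbered 2 lay above both numbered 1. Psat1, Phgdh and Psph catalyse the steps of serine synthesis. Psat1 had 6.70 and 9.28 in Wnt3A cells, against 6.49 and 7.90 in control cells, a difference of 0.79 (SE 0.98). For Psph the gap was 2.22 between the Wnt3A arrays and 0.90 between the controls, and for Phgdh it was 1.48 and 1.22, the more even of the pair. Mthfd2 and Shmt2, the mitochondrial enzymes that turn serine into one-carbon units, had gaps of 1.93 and 1.52 between the Wnt3A arrays and 1.46 and 0.57 between the controls. The difference between groups was 0.19 for Mthfd2 and -0.02 for Shmt2, whose 3 other probe sets gave 0.014 to 0.36.

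Cth, cystathionine gamma-lyase of the transsulfuration route, had 2.83 and 5.92 in Wnt3A cells and 2.28 and 4.84 in control cells. Replicate 1 was close to the dim limit of 2.18 in both groups, so the gaps of 3.09 with Wnt3A and 2.55 in control rest on dim signals at the low end, and the difference was 0.82 (SE 1.32). Cbs, which makes the substrate of Cth, had 3.01 and 3.10 in Wnt3A cells, against 2.75 and 2.998 in control cells. The 4 signals lay within a narrow range not far above the dim limit, and the difference was 0.18 (SE 0.18). Aldh18a1, which starts proline synthesis from glutamate, read 7.24 and 8.32 in Wnt3A cells and 6.99 and 7.31 in control cells. Wnt3A replicate 1 lay just under control replicate 2. Its 4 other probe sets gave differences of 0.43 to 0.56, and its own was 0.63 (SE 0.41, interval -0.44 to 1.70, adjusted p = 0.917 in limma). With 1 array left out at a time it ranged from 0.09 to 1.17 and kept its sign.

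The 14 synthetases, which charge tRNAs with amino acids, had smaller gaps, with medians of 1.13 between the Wnt3A arrays and 0.59 between the controls. The group difference had a median of 0.16 and ran from -0.30 for Vars to 0.43 for Yars. Wars, for tryptophan, had the widest gap, with 4.83 and 6.57 in Wnt3A cells and 4.97 and 6.12 in control cells. Aars, for alanine, read 6.78 and 8.42 in Wnt3A cells and 7.05 and 7.83 in control cells, and Gars, for glycine, read 8.09 and 9.60 in Wnt3A cells and 8.20 and 9.03 in control cells. In these 3 genes the control arrays lay between the Wnt3A arrays. Cars, Nars, Lars, Iars and Tars had gaps of 1.10 to 1.49 between the Wnt3A arrays and of 0.26 to 1.07 between the controls. At the other end Hars, for histidine, had 7.62 and 7.76 in Wnt3A cells, against 7.63 and 7.65 in control cells. Its difference was 0.05 with an interval of -0.44 to 0.54. Vars, Sars and Eprs also had gaps of at most 0.61 in either group, Yars had 0.72 with Wnt3A and 0.57 in control, and Rars had 0.83 with Wnt3A and 0.18 in control. Wars, Aars, Gars and Hars were singled out after their values were seen.

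Within each replicate number, 1 Wnt3A array stands against 1 control array, so the values carry no test. In replicate 1 the Wnt3A array was above control for 13 of the 33 genes (49.4% of all genes), with a median of -0.07. In replicate 2 it was above for 31 of 33 (46.8% of all genes), with a median of 0.56. Both numbers gave a higher value with Wnt3A for 13 genes (27.1% of all genes). A lower value in both was seen for Eprs and Vars, and for 2862 of all 9295 tested genes. For Eprs this held for the probe set of highest mean, while its others were higher with Wnt3A in replicate 2. By role the medians in replicate 1 were -0.08 for stress regulators, 0.08 for synthesis enzymes and -0.11 for synthetases, and in replicate 2 they were 0.78, 1.01 and 0.41. Trib3, Ddit3 and Atf3 were farthest apart in replicate 2, by 1.97, 1.94 and 1.87, and in replicate 1 they differed by 0.34, 0.12 and 0.53.

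**Figure D3:**
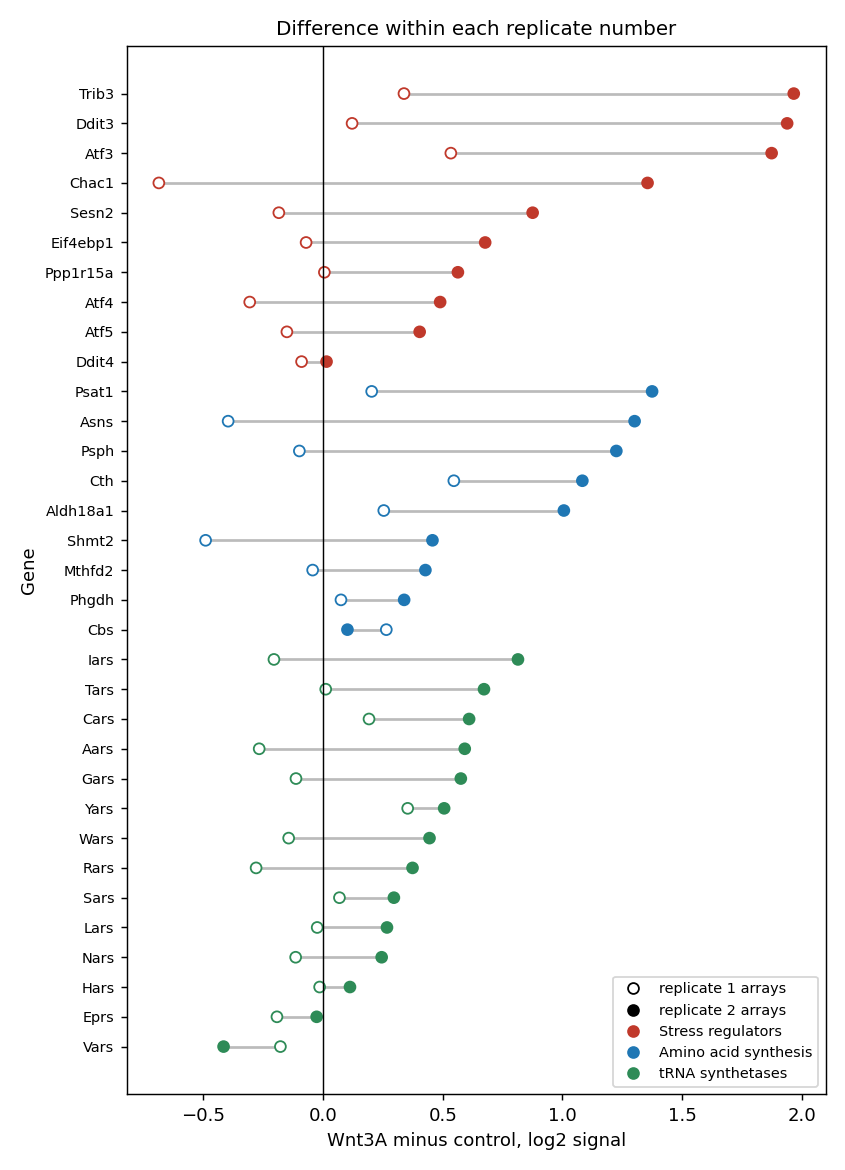
Wnt3A minus control in log2 signal for each gene, with open points for the replicate 1 arrays and filled points for the replicate 2 arrays, coloured by role. Open points scatter around 0 between -0.69 and 0.55, while 31 of 33 filled points lie above 0.

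Genes with a wide gap between control arrays also had a wide one between Wnt3A arrays. Across the 33 genes the 2 gaps had a Pearson r of 0.83 and a Spearman rho of 0.78, and across all 9295 tested genes r was 0.48 and rho was 0.37. The genes of a programme are read on the same 4 arrays and are not independent, so these values are a description. The 9 genes with the element in the promoter window had median gaps of 1.64 with Wnt3A and 0.78 in control, and the 15 genes with a promoter entry and no match had 1.45 and 0.64.

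**Figure D4:**
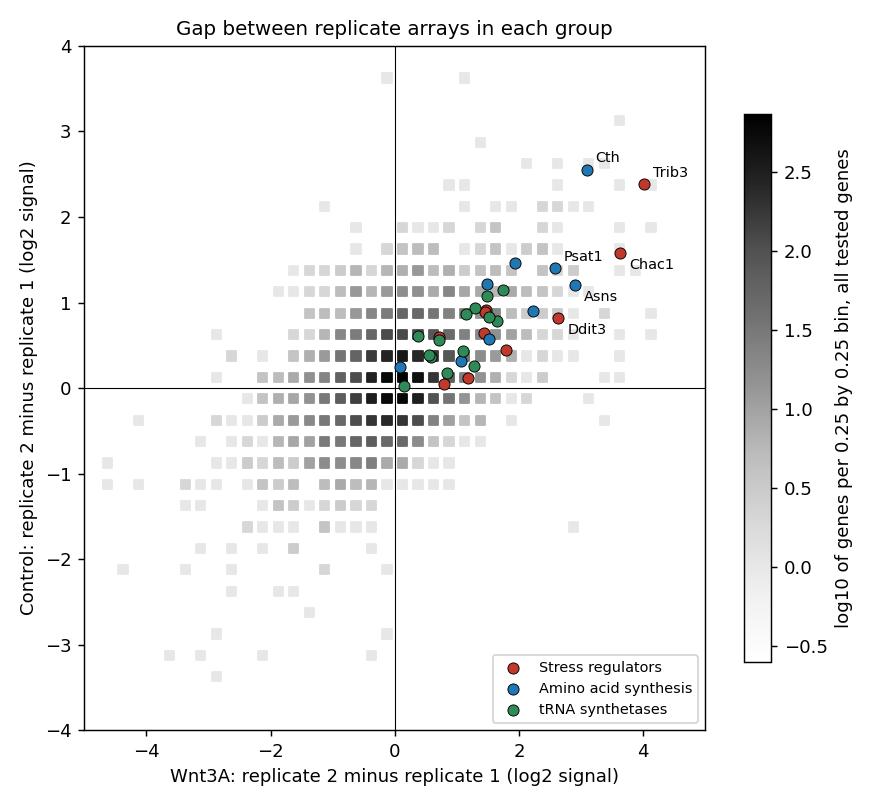
Gap between replicate 2 and replicate 1 in Wnt3A cells (horizontal axis) and in control cells (vertical axis), in log2 signal. Grey squares count the 9295 tested genes per bin, except the few whose gaps lie beyond the axes. The 33 coloured genes lie to the right of 0 and above 0, with Trib3, Cth, Chac1, Asns and Psat1 farthest out among them.

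Neighbouring parts of the pathway were taken from lists, and 0 genes passed in any of them in limma at an adjusted p of 0.05. Of 14 tested eIF2 kinases, eIF2 and eIF2B subunits and their regulators, 7 were higher and 7 lower with Wnt3A. Replicate 2 lay above replicate 1 in both groups for 4 of the 14, against 36.4% of all tested genes. The amino acid deprivation sensor gene Eif2ak4 differed by -0.44 and the endoplasmic reticulum sensor gene Eif2ak3 by 0.18. Of 9 amino acid transporter genes, 7 were higher, and 7 had both replicate 2 arrays above. Slc7a11, the cystine transporter gene, read 4.13 and 4.33 in Wnt3A cells and 2.40 and 3.33 in control cells, a difference of 1.37 (SE 0.36, adjusted p = 0.658 in limma). Its replicate 2 was above replicate 1 in both groups, by 0.20 with Wnt3A and 0.93 in control. Of 19 other ATF4 target genes 12 were higher, and 13 had both replicate 2 arrays above. Stc2, the gene of the secreted glycoprotein stanniocalcin, read 5.67 and 5.53 in Wnt3A cells and 4.17 and 4.11 in control cells, a difference of 1.46 (SE 0.21, adjusted p = 0.333 in limma). Nupr1, a stress-induced chromatin protein gene, differed by 1.35 (SE 0.64), with 9.24 and 10.83 in Wnt3A cells and 8.16 and 9.20 in control cells. Both Wnt3A arrays lay above both controls for 2 of the 9 transporter genes (Slc7a11 and Slc38a2) and 2 of the 19 other targets (Stc2 and Nupr1), against 14.7% of all genes. They lay below both controls for 1 transporter gene, Slc1a5 (difference -0.46, SE 0.17), and for 3 other targets, against 19.8% of all genes. Those 3 were Ddr2 with a difference of -0.44, Cebpb with -0.40 and Sqstm1 with -0.13, the last of which was named after its values were seen.

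Synthetases outside the 33 were looked at in the same way. Of 9 tested genes for other cytoplasmic synthetases, their scaffold proteins and selenocysteine synthesis, 5 had both replicate 2 arrays above, against 36.4% of all tested genes. The median gaps of the 9 were 0.29 with Wnt3A and 0.08 in control. The scaffold gene Aimp2 differed by 0.56 (SE 0.53). Of 8 mitochondrial synthetase genes 2 had both replicate 2 arrays above, 7 were lower with Wnt3A, and the median gaps were -0.07 with Wnt3A and 0.23 in control. Of 8 tested genes of folate, glycine, glutamine and proline metabolism outside the 33, 6 were lower with Wnt3A and 1 had both replicate 2 arrays above. Glul, glutamine synthetase, read 9.27 and 7.46 in Wnt3A cells and 10.29 and 10.02 in control cells, a difference of -1.78 (SE 0.62, adjusted p = 0.850 in limma). Whether these lists differ from the 33 genes was not tested.

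Genes of the unfolded protein response and of cycling cells had gaps by replicate number too. Of 17 unfolded protein response genes 14 had both replicate 2 arrays above, against 36.4% of all tested genes. The mean signal of the 17 was 7.68 and 9.05 on Wnt3A replicates 1 and 2, against 7.78 and 8.34 on control replicates 1 and 2. Edem1, which marks misfolded glycoproteins for degradation, had the lowest unadjusted p of that list and differed by 1.01 (SE 0.39, adjusted p = 0.894 in limma). Of 9 cycling-cell markers 8 had both replicate 2 arrays above, with mean signals of 4.04 and 4.96 on the Wnt3A arrays and 3.87 and 5.03 on the controls. Their mean was not higher on Wnt3A replicate 2 than on control replicate 2. All 9 were above the limit for dim genes. The 11 markers of differentiated muscle did not share that order: 1 had both replicate 2 arrays above, and the median gaps were -0.34 with Wnt3A and 1.27 in control. Wnt3A lay below both controls on both arrays for 10 of the 11, against 19.8% of all genes. In limma 6 of the 11 had an unadjusted p under 0.05, against 5.68% of all genes, with 0 past the adjusted threshold. They had mean signals of 7.75 and 7.33 on the Wnt3A arrays and 8.10 and 9.17 on the controls. The part of these lists in the gap of the 33 genes was not tested.

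**Figure D5:**
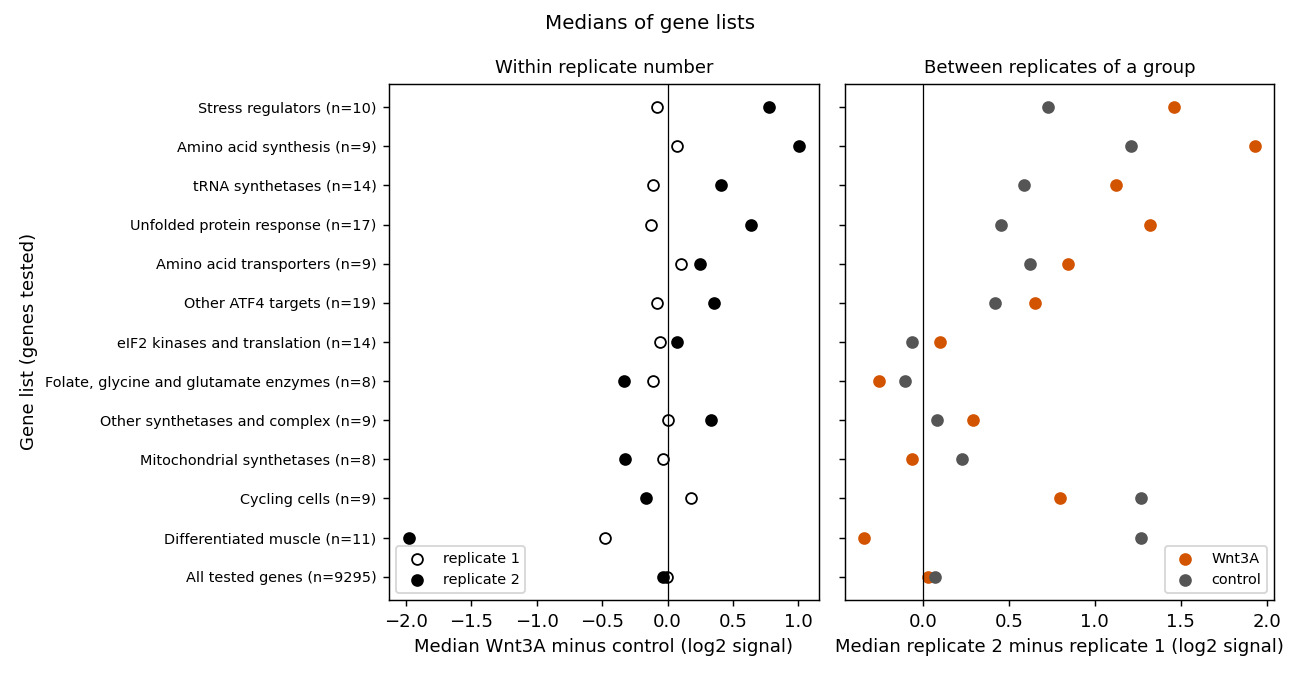
Medians of gene lists in log2 signal: left, Wnt3A minus control within replicate 1 (open) and replicate 2 (filled); right, replicate 2 minus replicate 1 within Wnt3A (orange) and control (grey). The 3 lists at the top, which make up the 33 genes, have right-hand medians between 0.59 and 1.93, beside 0.03 and 0.07 over all tested genes.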

How the data were processed

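Expression was measured on 4 Affymetrix arrays, 2 of Wnt3A-treated and 2 of control C2C12 cells. The authors deposited 1 log2 signal per probe set and array. The base was inferred from their range, 0.50 to 13.23, and another base would rescale every difference. The tools GCOS and PLIER appear in the list of tools per the submitters' processing notes. Normalization and build: not given in the sources used here. Groups and replicate numbers came from the titles. The protocol text mentions Wnt3A for all samples, so the treatment label decided.

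Of 22690 probe sets, 20380 with 1 platform symbol were used, 691 with several and 1555 without one were not, and 64 are array controls. By Entrez ID 20351 were matched to RefSeq symbols of GRCm38.p6. The probe set with the highest mean stood for its gene, the dimmest 25% of genes were left out, and nothing was normalized again. limma 3.58.1 under R 4.3.3 tested the differences (lmFit, eBayes with an intensity trend, group as the only term, two-sided), adjusted over 9295 genes; intervals use 4.68 degrees of freedom. The procedure was run on simulated data with errors drawn independently for each array. Those data held no shared gap by replicate number, so the run says nothing about that gap. Promoters came from the RefSeq table of GRCm38.p6. Not every promoter sequence with a match is reported here. The members and lists were chosen with earlier results of these data known. All 33 measured members are accounted for; those described in full were at least 1.5-fold apart, had groups that did not overlap, or were Atf4, Ddit3, Trib3 or Asns, and members added after their values were seen are Atf5, Chac1, Wars, Aars, Gars and Hars. From each other list up to 4 genes of lowest p could be named. Titles describe biological replicates without stating that cultures were started apart, so p-values measure the spread between these arrays. Alternatives were the replicate number as a block, other scalings, filters, probe set summaries and moderation, and each array left out.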

Additional observations from a re-analysis of the deposited data

How the results depend on the processing

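Over all genes 0 passed, and the count was 83 with the replicate block, 17 with scaling to hybridization controls, 1 with the dimmer 50% left out and 0 under every other alternative run. Among the 33 genes 0 passed under any alternative that kept 2 arrays per group. At an unadjusted p under 0.05 there were 6 with the block, against 11.7% of all genes. With hybridization scaling there was 1, whose share of all genes is not given here, and the other alternatives with 2 arrays per group gave 0. Leaving out an array leaves 1 sample in its group, which is assumed to vary like the other group. Without a Wnt3A array the spread is that of the 2 controls. Those fits are therefore described by their differences, with no count at the unadjusted threshold. The labels do not say that the numbers pair arrays; deviations of same-numbered arrays correlated at r = 0.48 over all tested genes. Hybridization scaling moved the median difference of all genes from -0.02 to 0.31, and Ddit4 (0.29), Shmt2 (0.31), Eprs (0.22) and Vars (0.032) were then above 0, beside that shifted median. With the mean of probe sets Shmt2 (0.11) and Eprs (0.039) were above 0. With 1 array left out, medians ran from -0.42 to 0.98 for stress regulators, -0.55 to 1.17 for synthesis enzymes, -0.38 to 0.75 for synthetases and -0.46 to 0.95 for all 33, lowest without Wnt3A replicate 2 and highest without Wnt3A replicate 1. Single differences that changed sign ran as follows: Atf4 -0.63 to 0.81, Atf5 -0.60 to 0.85, Ddit3 -0.29 to 2.35, Ddit4 -0.39 to 0.32, Trib3 -0.86 to 3.16, Chac1 -1.48 to 2.15, Sesn2 -0.24 to 0.94, Ppp1r15a -0.45 to 1.02, Eif4ebp1 -0.10 to 0.70, Asns -1.001 to 1.91, Psat1 -0.50 to 2.08, Phgdh -0.53 to 0.95, Psph -0.55 to 1.67, Shmt2 -0.78 to 0.74, Mthfd2 -0.77 to 1.16, Cth -0.73 to 2.36, Aars -0.66 to 0.98, Cars -0.34 to 1.15, Eprs -0.39 to 0.17, Gars -0.53 to 0.99, Iars -0.34 to 0.95, Lars -0.46 to 0.70, Nars -0.58 to 0.71, Sars -0.11 to 0.48, Tars -0.21 to 0.89, Wars -0.72 to 1.02, Vars -0.60 to 0.0059, Hars -0.023 to 0.12, Rars -0.37 to 0.46. Atf3, Aldh18a1, Cbs and Yars kept their sign with any array left out, and the share of all genes that did so is not given here. The other Cbs probe set, under the limit for dim genes, had a difference of -0.033. Counts of replicate 2 above replicate 1, chosen after seeing the data, were 31 to 33 of 33 under the scalings and probe set summaries tried. Dim signals limit Cth and Cbs most, and 2 arrays per group limit every value.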
